A study of Mus musculus with 12 samples.

Results

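The genes described here are 10 markers of the stomach lining: Vsig1, Anxa10, Cym, Tff1, Tff2, Gkn1, Gkn2, Gkn3, Muc5ac and Pgc. They were taken as every probe set of the deposited table that is annotated with only 1 of these symbols, 13 probe sets in all, and where a symbol had several, the one that was brightest on average across the 12 arrays was used. They make up 10 of the 18193 genes measured in this way. The set was chosen by measured values of these same arrays, the high values of several of the genes in the line 344SQ against both 393 lines, so the comparisons of 344SQ with the other lines are given for these genes as a description.

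The study profiled tumours of 3 mouse lung adenocarcinoma lines on Affymetrix arrays, with 4 arrays for each line. The lines came from 2 mice that carried the alleles p53R172H∆g/+ and K-rasLA1/+, mouse 344 and mouse 393, so all groups share the mutant p53 and K-ras alleles. The line 344SQ grew from a subcutaneous lesion of mouse 344 and is labelled highly metastatic, 393LN from a mediastinal lymph node of mouse 393 and intermediately metastatic, and 393P from a primary lung tumour of mouse 393 and non-metastatic. Each line is a mass population kept by serial culture in RPMI 1640 with fetal bovine serum, and the RNA came from dissected, snap-frozen tumours that it formed in syngeneic hosts, so cells of the host are present in every sample. The labels give no age for the hosts, and each line stands for 1 lesion. A comparison of 344SQ with either 393 line is also a comparison of the 2 donor mice, and line and mouse cannot be told apart. The labels do not say that the 4 arrays of a line came from separate animals, so the p-values measure only the spread between these samples.

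Values are log2(intensity + 16), on which scale the lowest deposited intensity, 1, is 4.09. The array medians lay between 7.19 and 7.29, and the number of arrays limits the precision. The ratio of the 3' to the 5' actin control signal was 1.47 on 393P replicate 1 and 1.04 to 1.19 on the other arrays. Keratins of simple epithelium were bright in all 3 lines: Krt8 averaged 13.98 in 344SQ, with 13.81 in 393LN and 13.98 in 393P. The lung lineage factor Nkx2-1 lay near the floor, at a mean of 4.24 in 344SQ, with 4.18 in 393LN and 4.15 in 393P, so this defining marker of the lung lay close to the lowest deposited value in every line. The epithelial splicing regulator Esrp1 was nearly at the floor in 344SQ as well, at a mean of 4.45, against 11.15 in 393LN and 11.51 in 393P. Epcam and Rab25 also fell in 344SQ against both 393 lines, and these were the 3 of 8 measured epithelial markers that passed the test in either comparison. A second probe set of Epcam gave smaller differences, -0.45 from 393P and -0.18 from 393LN, against -3.82 and -3.64 with the one used. Of 11 macrophage markers, 0 rose in 344SQ against 393P and 3 fell, Aif1, Tyrobp and Cd14, and 2 fell against 393LN, Aif1 and Tyrobp, with list medians of -0.67 and -0.57. When 1 array was left out, the number of macrophage markers that fell was 2 to 4 against 393P and 1 to 3 against 393LN; without any of 9 arrays Tyrobp was no longer called against 393LN. The summed intensity of the macrophage list was 20836 to 34471 in 344SQ, 27323 to 41517 in 393LN and 30562 to 50636 in 393P, and 0 of the 11 were at the floor on all arrays. Of 8 fibroblast markers 0 were called in either comparison (limma), with medians of 0.38 and 0.41 and summed intensities of 47033 to 59532 in 344SQ, 34365 to 50393 in 393LN, and 33972 to 47188 for 393P. As shares of all genes tested, 4.86% were called higher and 5.62% lower in 344SQ against 393P, and 3.99% and 6.92% against 393LN. The part of these host cells in the values below was not tested.

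The stomach lining renews itself from stem cells that give rise to mucus-secreting pit cells towards the lumen and to neck cells and enzyme-secreting chief cells deeper in the gland. Pit cells make the gel-forming mucin Muc5ac, the trefoil peptide Tff1 and the gastrokines Gkn1 and Gkn2, neck cells make Tff2, and chief cells make the zymogens of pepsin-type proteases such as Pgc. In mouse lung tumours driven by K-ras, loss of Nkx2-1 is known to be followed by expression of stomach genes, which depends on the forkhead factors Foxa1 and Foxa2.

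The RefSeq table of promoters (GRCm38.p6) held 7 of the 10 genes: Vsig1, Anxa10, Cym, Gkn1, Gkn2, Gkn3 and Pgc. The 250 bases before the annotated start are printed for the 3 of them with the largest differences of 344SQ from 393P and for Gkn2, which had nearly the same mean in the 3 lines. Vsig1 is at chrX:140907358-140907607 on the plus strand, Anxa10 at chr8:62123194-62123443 on the minus strand, Cym at chr3:107221733-107221982 on the minus strand and Gkn2 at chr6:87373115-87373364 on the plus strand, each read 5′ to 3′ along the gene. Capitals mark every match, on either strand, to a short motif that was searched for.
Vsig1: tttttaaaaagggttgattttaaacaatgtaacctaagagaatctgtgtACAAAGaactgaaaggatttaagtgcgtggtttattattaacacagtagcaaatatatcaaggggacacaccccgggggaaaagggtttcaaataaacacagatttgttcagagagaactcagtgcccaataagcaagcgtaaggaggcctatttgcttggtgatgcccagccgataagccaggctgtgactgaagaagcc
Anxa10: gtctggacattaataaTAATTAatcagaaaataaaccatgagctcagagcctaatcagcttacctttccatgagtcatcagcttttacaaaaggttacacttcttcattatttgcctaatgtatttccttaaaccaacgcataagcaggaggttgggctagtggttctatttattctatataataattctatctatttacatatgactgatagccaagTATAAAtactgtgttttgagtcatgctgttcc
Cym: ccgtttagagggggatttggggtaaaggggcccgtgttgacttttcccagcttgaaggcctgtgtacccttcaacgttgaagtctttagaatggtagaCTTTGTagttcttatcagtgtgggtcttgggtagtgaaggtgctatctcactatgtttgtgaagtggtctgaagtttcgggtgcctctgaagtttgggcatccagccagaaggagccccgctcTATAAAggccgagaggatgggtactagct
Gkn2: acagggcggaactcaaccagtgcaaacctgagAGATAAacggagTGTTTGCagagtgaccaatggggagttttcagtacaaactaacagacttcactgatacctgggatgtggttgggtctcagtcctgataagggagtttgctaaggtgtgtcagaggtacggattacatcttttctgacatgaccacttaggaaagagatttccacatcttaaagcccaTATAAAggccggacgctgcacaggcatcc
The TATA box, TATAAA, began at base -32 in Anxa10, -29 in Cym and -29 in Gkn2, counted from the annotated start, and at -31 in Pgc, while 12.4% of all 32851 promoters of the table held it in their 250 bases. The SOX motif ACAAAG was found in Vsig1 and, on the minus strand, in Cym, and also in Gkn3 and Pgc, against 16.5% of all promoters. The homeobox motif TAATTA was found in Anxa10 and Gkn3 (4.84% of all), the GATA motif AGATAA in Gkn1 and Gkn2 (9.99%) and the forkhead motif TGTTTGC in Gkn2 and Gkn3 (4.30%). The other forkhead motif, TGTTTAC (3.17%), the HNF4 motif CAAAGTCCA (0.384%) and the E-box CACGTG (6.02%) matched none of the 7. No searched motif was found in all of Vsig1, Anxa10 and Cym. The exact letters searched for as forkhead, GATA and HNF4 motifs were absent from these 250 bases in all 3. Other forms of these motifs were not searched for, so no absence of forkhead or GATA sites is read from this window.

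Vsig1, a junctional adhesion molecule of the immunoglobulin superfamily found in the gastric epithelium, was at 11.99, 11.96, 11.69 and 11.70 on the 4 arrays of 344SQ, against 5.28, 5.19, 9.79 and 6.97 in 393LN and 5.90, 6.25, 6.09 and 6.84 in 393P. As deposited intensities these were 3281 to 4039.6 in 344SQ, 20.4 to 867 in 393LN and 43.7 to 98.4 in 393P. Every array of 344SQ lay above every array of the 393 lines and the 4 values of 344SQ had an SD of 0.16. In 393LN the arrays were widely spread, with replicate 2 lowest at 5.19 and replicate 3 highest at 9.79. The mean was higher by 5.56 ± 0.78 in 344SQ than in 393P (SE, n = 4 each, as below) and by 5.03 ± 0.78 than in 393LN. Without 393LN replicate 3 the difference from 393LN was 6.02, and without 393LN replicate 2 it was 4.49.

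Anxa10, an annexin of gastric pit cells, was at 10.80, 11.67, 11.99 and 10.96 in 344SQ, against 7.04, 7.07, 7.38 and 6.81 in 393LN and 7.78, 9.34, 8.68 and 8.32 in 393P. It was the 1 member for which no array of any line lay within the range of another line, with 344SQ highest and 393LN lowest. The means were higher by 2.83 ± 0.32 in 344SQ than in 393P and by 4.28 ± 0.32 than in 393LN. A second probe set for Anxa10 gave the same order for 344SQ, at 7.49, 8.58, 8.97 and 8.58, against 4.66, 4.96, 5.62 and 4.64 in 393LN and 5.42, 5.32, 5.18 and 4.94 in 393P. Its differences were 3.19 against 393P and 3.44 against 393LN, both ± 0.30.

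Cym, chymosin, the milk-clotting aspartic protease of the infant stomach, was at 11.69, 11.04, 10.32 and 7.74 in 344SQ, against 6.48, 6.30, 7.11 and 6.48 in 393LN and 6.80, 6.52, 6.53 and 6.31 in 393P. All 4 arrays of 344SQ lay above all 8 others, but replicate 4 at 7.74 was close to the highest of them, 393LN replicate 3 at 7.11. The SD in 344SQ was 1.73, against 0.35 in 393LN and 0.20 in 393P. The mean was higher by 3.66 ± 0.63 in 344SQ than in 393P and by 3.61 ± 0.63 than in 393LN. Without 344SQ replicate 4 these became 4.48 and 4.42, and without 344SQ replicate 1 they were 3.16 and 3.11. In tumour tissue a lower value cannot be told apart between fewer cells that express the gene and less RNA per cell.

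Tff1, the trefoil peptide of pit cells, was bright in every line, at 12.04, 12.80, 12.72 and 13.00 in 344SQ, 10.49, 10.66, 10.61 and 10.65 in 393LN and 10.59, 11.22, 11.61 and 12.29 in 393P. The 4 arrays of 344SQ lay above all 4 of 393LN, but 393P replicate 4 at 12.29 exceeded 344SQ replicate 1 at 12.04. The difference was 1.21 ± 0.30 from 393P and 2.04 ± 0.30 from 393LN. The spread was widest in 393P, with an SD of 0.72, against 0.42 in 344SQ and 0.08 in 393LN.

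**Figure D1:**
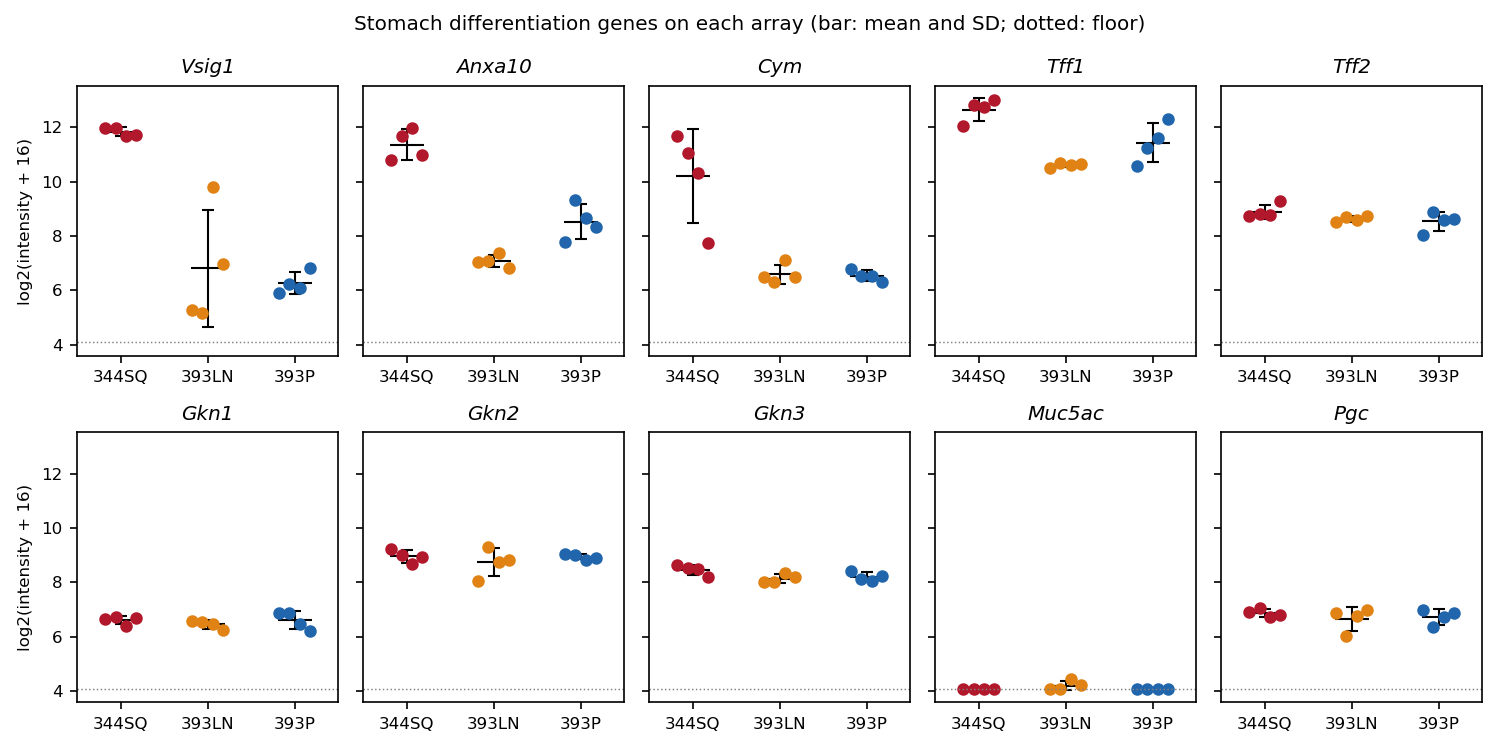
Values of the 10 stomach genes on each of the 12 arrays, as log2(intensity + 16), 1 panel per gene. Points are arrays of 344SQ, 393LN and 393P from left to right, horizontal bars are the mean of 4 arrays with the SD, and the dotted line is the floor. Vsig1, Anxa10 and Cym stand above both 393 lines on all 4 arrays of 344SQ, and 393LN replicate 3 stands apart for Vsig1 at 9.79.

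The other 6 genes differed by no more than 0.35 between 344SQ and either 393 line on the probe sets chosen. Tff2, the trefoil peptide of neck cells, lies next to Tff1 on chromosome 17 in RefSeq, and averaged 8.89 ± 0.26 in 344SQ, 8.63 ± 0.10 in 393LN and 8.54 ± 0.35 in 393P (SD, n = 4 each, as for the other means of this paragraph). Its differences, 0.35 ± 0.17 from 393P and 0.26 ± 0.17 from 393LN (SE), were small beside those of its neighbour, and the arrays of 344SQ overlapped those of 393P. Gkn1, Gkn2 and Gkn3, secreted peptides of the gastric mucosa that sit side by side on chromosome 6, each had arrays of 344SQ within the range of 393P. Gkn1 averaged 6.63 ± 0.15 in 344SQ, 6.46 ± 0.16 in 393LN and 6.62 ± 0.32 in 393P. Gkn2 averaged 8.96 ± 0.23 in 344SQ, 8.74 ± 0.52 in 393LN and 8.95 ± 0.10 in 393P. Neither gastrokine was separated between any pair of lines. Gkn3, whose chosen probe set is of a class (x_at) that may bind related transcripts, averaged 8.47 ± 0.18 in 344SQ, 8.14 ± 0.16 in 393LN and 8.22 ± 0.16 in 393P. Its second probe set went the other way in 344SQ, with differences of -0.52 from 393P and -0.66 from 393LN, so no direction is given for Gkn3. The second probe set of Gkn1 gave 0.01 from 393P and -0.41 from 393LN.

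Muc5ac, the gel-forming mucin of pit cells, was at the floor of 4.09 on all 4 arrays of 344SQ and all 4 of 393P, and at most at 4.44 in 393LN, where 2 arrays were above it. Pgc, progastricsin, the zymogen of a chief-cell pepsin, averaged 6.88 ± 0.15 in 344SQ, 6.66 ± 0.43 in 393LN and 6.73 ± 0.28 in 393P. Of the 10 genes, 7 had a mean above 7.93 in at least 1 line, a bound that lies at the 40th percentile of all genes' highest line means; Gkn1, Muc5ac and Pgc did not. Gkn2, Gkn3 and Tff2 were thus above this bound on the probe sets chosen. For Gkn3 this rests on the x_at probe set that may bind related transcripts. Its other probe set lay below the bound on every array, from the floor of 4.09 to 5.68, so the level of Gkn3 depends on the probe set. Levels of different genes are not set against each other, since probe sets differ in brightness.

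Against 393P, 4 of the 10 genes were past an adjusted p of 0.05 and higher in 344SQ (Vsig1, Anxa10, Cym and Tff1) and 0 were lower, where 4.86% of all genes tested were called higher and 5.62% lower. The groups did not overlap for 3 of them, where 8.12% of all genes had every array of 344SQ above every array of 393P and 8.62% had every array below. Against 393LN Vsig1, Anxa10, Cym and Tff1 were called higher and 0 lower, where 3.99% of all genes were called higher and 6.92% lower, and all 4 had groups that did not overlap, where 6.72% of all genes lay wholly above and 10.7% wholly below. Both comparisons use the same 344SQ arrays. The median difference over the 10 genes was 0.30 against 393P and 0.29 against 393LN, and over all genes -0.00066 and -0.017. The members were chosen with these contrasts known, so nothing is read from the shares.

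**Figure D2:**
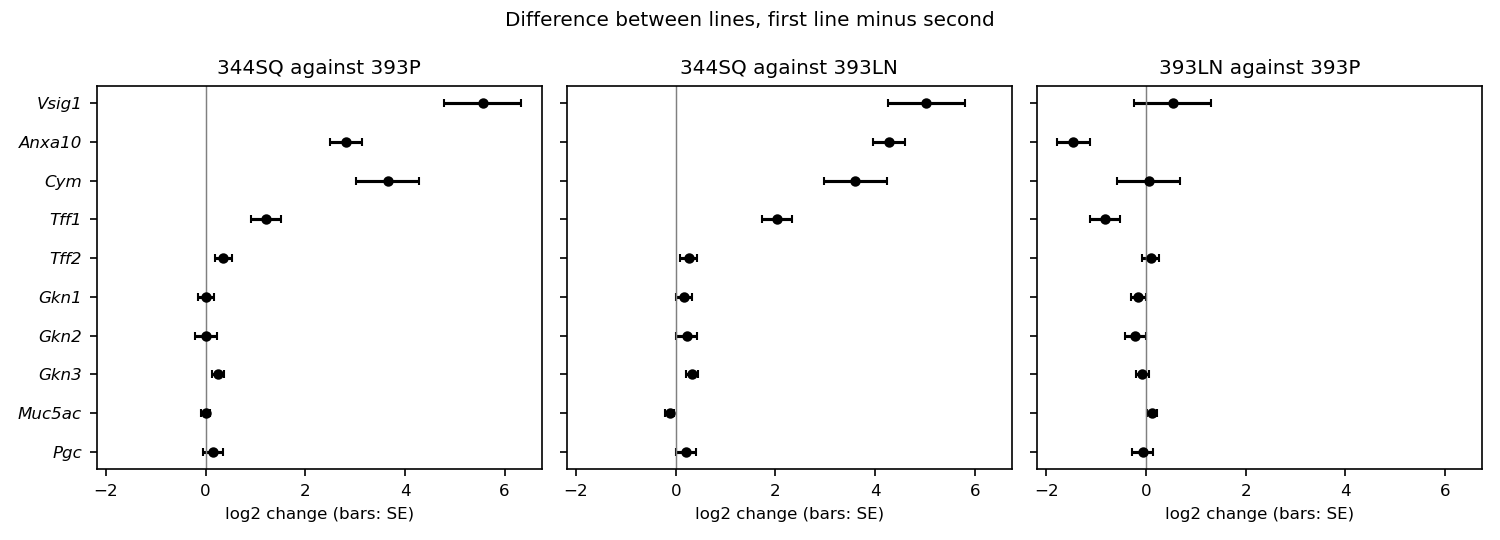
Difference in log2(intensity + 16) for each stomach gene, with its SE, for 344SQ minus 393P, 344SQ minus 393LN and 393LN minus 393P (4 arrays a line). Vsig1, Anxa10, Cym and Tff1 lie between 1.21 and 5.56 in the comparisons of 344SQ, and Anxa10 is at -1.45 between 393LN and 393P.

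The comparison of 393LN with 393P, a lymph node line and a primary tumour line of the same mouse, did not choose the genes and was tested. Anxa10 fell in 393LN, by 1.45 ± 0.32 on the log2 scale, or to a level 2.74-fold lower (limma, adjusted p = 0.0394), and all 4 arrays of 393LN lay below all 4 of 393P, as did 3.57% of all genes. It was the 1 member called lower, and 0 were called higher, where 0.698% of all genes were called lower and 1.75% higher. With the second probe set of Anxa10 the difference was -0.25 (limma, adjusted p = 0.775), so the call rests on 1 probe set. The call also ended when 344SQ replicate 2, any array of 393LN, or 393P replicate 2, 3 or 4 was left out, with adjusted p between 0.0208 and 0.135 over all alternatives. Vsig1 was at a mean of 6.81 ± 2.15 in 393LN and 6.27 ± 0.40 in 393P (SD, n = 4 each), a difference of 0.54 ± 0.78 that did not pass the test (limma, adjusted p = 0.813) and was -0.46 without 393LN replicate 3. For Tff1 the difference was -0.82 ± 0.30 (limma, adjusted p = 0.197), and for Cym it was 0.05 ± 0.63 (adjusted p = 0.986). The remaining 6 genes had differences between -0.21 and 0.12, with adjusted p of 0.613 or more.

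How Vsig1, Anxa10, Cym and Tff1 varied together depended on the pair. Over all 12 arrays the correlations between these 4 genes were 0.628 to 0.895 (Pearson's r), but arrays of a line share its mean, and the high values of 344SQ enter each pair. Over the 8 arrays of the 393 lines alone, r was 0.72 for Vsig1 with Cym and 0.66 for Anxa10 with Tff1. For the other pairs it was -0.06 for Vsig1 with Anxa10, 0.00 for Vsig1 with Tff1, -0.08 for Anxa10 with Cym and -0.42 for Cym with Tff1. On 393LN replicate 3, where Vsig1 was at 9.79, Cym was at 7.11, the highest of the 8, while Tff1 was at 10.61, within the range of the other arrays of 393LN. These correlations are a description of few arrays.

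For each of the 4 genes, the 5 genes with the highest Pearson's r over the 12 arrays were taken from 837 genes that ranged over at least 2 log2 units and were not dim. Vsig1 was most like Apob, a structural protein of lipoprotein particles (r = 0.979), Psg23 (0.970), Foxa2 (0.964), Myrf (0.963) and B4galt6 (0.957). Over the 8 arrays of the 393 lines, Apob and Myrf had the highest r with Vsig1 of these 5, at 0.927 and 0.903. Apob was at 8.76 on 393LN replicate 3 and at 5.36, 5.79 and 5.69 on the other arrays of 393LN, against 11.86 to 12.88 in 344SQ and 5.40 to 6.29 in 393P. Myrf was at 11.36 on 393LN replicate 3 and at 6.58 to 9.44 on the others, so within 393LN both stood highest on the array where Vsig1 did. Apob and Myrf were picked for their likeness to Vsig1 on these same arrays, so this follows from the choice and is a description.

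Anxa10 was most like Dmbt1, a secreted scavenger receptor of mucosal surfaces (r = 0.954), and 3 of its 5 were serine proteases of mast cells or basophils, Mcpt2 (0.946), Mcpt8 (0.943) and Mcpt1 (0.943); Hmgcll1 (0.944) was the other. Mcpt2 was at 12.98, 13.10, 13.03 and 13.01 in 344SQ, against 6.78, 7.13, 8.12 and 8.74 in 393LN and 9.76, 11.17, 10.88 and 9.50 in 393P, the same order of lines as Anxa10. Mcpt2 was picked for its likeness to Anxa10 on these arrays, so this order follows from the choice and is a description. Of the 10 mast cell markers measured, Mcpt1 and Mcpt2 were called higher in 344SQ against both 393 lines, Hdc fell against 393P, which was lost without any of 6 arrays, and the others did not pass. The list median was 0.40 against 393P and 0.80 against 393LN. Among all genes tested, 4.86% were called higher and 5.62% lower against 393P, and 3.99% and 6.92% against 393LN. Without 344SQ replicate 4, 4 of the 10 were called higher against 393P and 6 against 393LN. Among those that did not pass, the difference from 393LN was 1.28 for Cpa3, 1.04 for Cma1, 0.83 for Fcer1a, 0.77 for Mcpt4, 0.24 for Ms4a2, 0.16 for Tpsb2 and -0.15 for Kit, the receptor that defines mast cells. Kit averaged 7.77 in 344SQ, with 7.92 in 393LN and 7.98 in 393P. A second probe set of Tpsb2 gave 1.34 against 393LN (limma, adjusted p over all probe sets = 0.0385) and 0.92 against 393P (0.149). Second probe sets of Kit, Ms4a2 and Hdc gave 0.09, 0.12 and -0.15 against 393LN and did not pass. The summed intensity of the mast cell list was 11430.0 to 16054 in 344SQ, 1457 to 2022 in 393LN and 2594 to 6003 in 393P, and 0 of the 10 were at the floor on all arrays. In 344SQ most of this sum came from Mcpt1 and Mcpt2, which were picked for their likeness to Anxa10 on these arrays. The part of mast cells in the values of Anxa10 was not tested.

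Cym was most like Arhgef26 (r = 0.975), Cdhr2 (0.969), Maob (0.969), Cdh2 (0.961) and Cacna1h (0.954), but over the 8 arrays of the 393 lines these r values were -0.59 to 0.35. Cdh2, N-cadherin, an adhesion molecule of mesenchymal and neural cells, shared with Cym the low replicate 4 of 344SQ, with 10.53, 10.28, 10.57 and 8.63 in 344SQ, against 6.39 to 7.06 in 393LN and 6.09 to 6.88 in 393P. It was picked for its likeness to Cym on these same arrays, so the shared low array follows from the choice and is a description. Tff1 was most like Mcpt8 (0.932), Nrk (0.909), Anxa10 (0.895), Baiap2l1 (0.890) and Rusc1 (0.888). Anxa10 was thus the 1 stomach gene that stood among the nearest 5 of another.

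**Figure D3:**
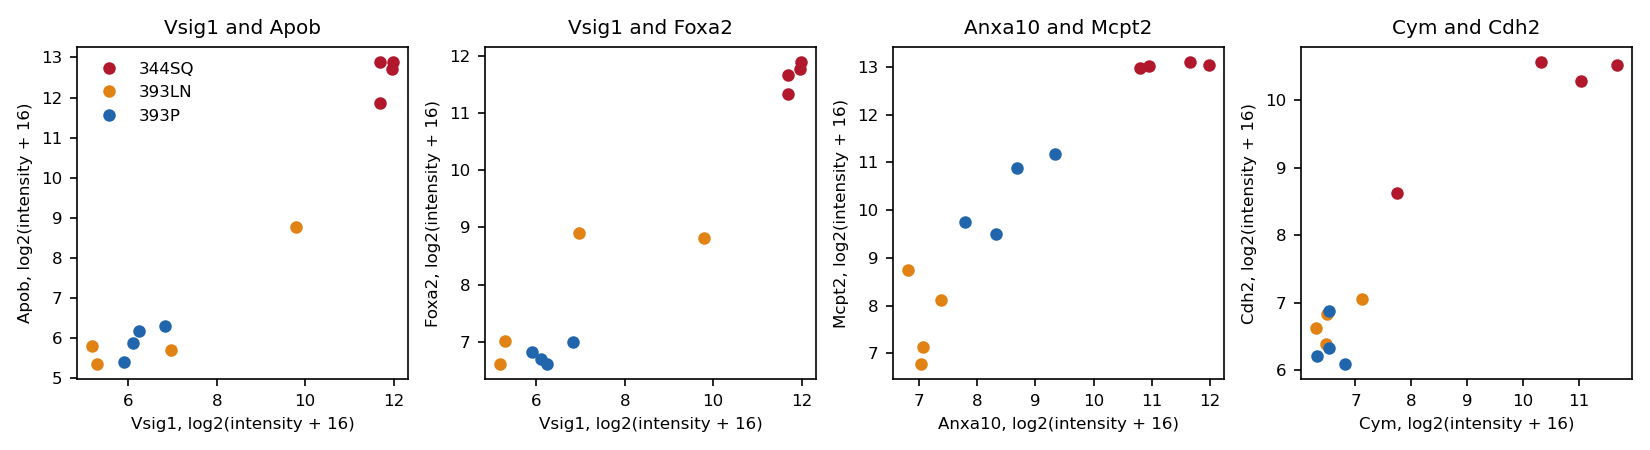
Values on the 12 arrays, as log2(intensity + 16), of Vsig1 against Apob and Foxa2, of Anxa10 against Mcpt2 and of Cym against Cdh2; each point is an array of 344SQ, 393LN or 393P. 393LN replicate 3 lies between the lines for Vsig1 (9.79) with Apob (8.76), and 344SQ replicate 4 for Cym (7.74) with Cdh2 (8.63).

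The transcription factors of the foregut and of gastric differentiation included both called directions. Of the 21 measured, 8 rose in 344SQ against 393P, 2 fell and 11 did not pass, with a list median of 0.12 against -0.00066 over all genes; 10.5% of all genes were called in either direction. Foxa2, a forkhead pioneer factor of the endoderm, was at 11.90, 11.77, 11.67 and 11.34 in 344SQ, against 7.01, 6.61, 8.81 and 8.91 in 393LN and 6.81, 6.61, 6.69 and 6.99 in 393P. Its change was 4.89 against 393P and 3.83 against 393LN (limma, adjusted p = 2.98e-05 and 0.00027). Pdx1, a homeobox factor of the antrum and pancreas, rose by 3.10 (adjusted p = 0.00123) against 393P, and Gata6, a zinc-finger factor of the endoderm, by 1.84 (adjusted p = 0.00101). Hnf4a, a nuclear receptor of endodermal epithelia, rose by 1.78 (adjusted p = 0.026), which was lost without any of 8 arrays, and Gata4 by 0.82 (adjusted p = 0.0169), which ended without either of 2. Onecut2, Klf5 and Creb3l1 were the other 3 that rose. Other probe sets gave 0.73 for Pdx1 against 393P (limma, adjusted p over all probe sets = 0.117) and -0.0045 for Gata4 (0.987). For Klf5 other probe sets gave 0.42 and 0.25 in this comparison (limma, adjusted p over all probe sets = 0.508 and 0.400). Each of the calls of Pdx1, Gata4 and Klf5 thus rests on 1 probe set. In the same comparison other probe sets gave 1.16 and 2.06 for Onecut2 (0.00796 and 0.00017) and 1.68 and -0.30 for Gata6 (0.0271 and 0.671). For Hnf4a they gave 1.45, 1.84 and 0.29 (0.0287, 0.0547 and 0.437). Foxa1, the partner of Foxa2, fell by 0.45 (limma, adjusted p = 0.0373), which ended without any of 6 arrays. Elf3, an epithelial ETS factor, fell by 1.49 (adjusted p = 0.00839). Foxa3 differed by -1.21 (adjusted p = 0.0585) and did not pass. Without 344SQ replicate 2, 5 of the 21 rose, and 1 fell when any of 344SQ replicates 1, 2 and 4 or 393P replicates 2 and 3 was left out.

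Against 393LN, 7 of these factors rose in 344SQ, 3 fell and 11 did not pass, with a list median of 0.26 against -0.017 over all genes, 10.9% of which were called in either direction. Sox2, a factor of the anterior foregut and of the stomach, was at 4.25, 5.61, 6.09 and 8.23 in 344SQ, against 12.28, 10.42, 8.17 and 8.50 in 393LN and 9.19, 7.41, 5.17 and 5.89 in 393P. It fell by 3.80 against 393LN (limma, adjusted p = 0.0438), but the groups overlapped and the call ended without any of 7 arrays, with adjusted p of up to 0.120. The count of factors that fell lay between 0 and 3 when 1 array was left out, and moved without 344SQ replicate 1, 2 or 3, 393LN replicate 1, 2 or 3, or 393P replicate 2. None of the 21 was called between 393LN and 393P (limma), where 2.45% of all genes were.

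Other genes of the stomach lining were called in both directions. Of 16 other surface and pit cell genes, 3 rose in 344SQ against 393P, 3 fell and 10 did not pass, with a list median of 0.13. Over all genes, 4.86% were called higher and 5.62% lower. Gcnt3, a glycosyltransferase of mucin glycans, rose by 1.71 (limma, adjusted p = 0.00164) and Tspan8, a tetraspanin, by 1.05 (adjusted p = 0.00774), and Cystm1 was the third. Psca, a surface protein of gastric epithelium, fell by 1.11 in 344SQ (adjusted p = 0.00523) and by 1.30 in 393LN (adjusted p = 0.0112), both against 393P. Muc1, a membrane mucin, fell by 0.88 (adjusted p = 0.0242), which was lost without any of 5 arrays, and Lypd8 was the third to fall. Without 344SQ replicate 2, or 393P replicate 2 or 4, 1 of the 16 fell. Against 393LN, 3 rose, 1 fell and 12 did not pass, with a median of 0.27, and 5 rose without 344SQ replicate 4. The shares over all genes were 3.99% higher and 6.92% lower. Ctse, an aspartic protease of pit cells, averaged 13.54 in 344SQ, 13.07 in 393LN and 13.00 in 393P, which did not pass. Cldn18 differed by 1.11 from 393P and by 1.12 from 393LN, which did not pass either. Its second probe set gave 3.03 against 393P (limma, adjusted p over all probe sets = 0.0185) and 2.97 against 393LN (0.0224), so the result depends on the probe set.

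None of the 11 measured genes of neck and chief cells was called in any of the 3 comparisons (limma). Their medians were 0.0019 for 344SQ against 393P, -0.09 for 344SQ against 393LN and 0.01 for 393LN against 393P. In these comparisons 10.5%, 10.9% and 2.45% of all genes were called in either direction. Lipf, the gastric lipase, averaged 5.25 in 344SQ, 5.25 in 393LN and 5.25 in 393P, and Cblif, which encodes intrinsic factor, was near the floor at 4.30 in 344SQ, 4.21 in 393LN and 4.41 in 393P. Of 11 parietal cell genes, Clic6 alone rose in 344SQ against 393P, by 0.81 (adjusted p = 0.0475), which ended without any of 9 arrays. A second probe set of Clic6 gave 4.04 against 393P (limma, adjusted p over all probe sets = 0.00698) and 3.07 against 393LN (0.0303). Car2, a carbonic anhydrase, fell by 1.86 in 344SQ against 393LN and rose by 1.58 in 393LN against 393P (adjusted p = 0.0253, lost without any of 5 arrays), while 344SQ differed from 393P by -0.27 (adjusted p = 0.686). Of 10 endocrine genes, Insm1 rose in 344SQ against 393P, which was lost without any of 8 arrays, and Hdc fell, which was lost without any of 6. A second probe set of Insm1 gave 3.09 against 393P (limma, adjusted p over all probe sets = 0.00223), 0.33 against 393LN (0.751) and 2.75 for 393LN against 393P (0.0188). Against 393LN, Chgb alone of the endocrine genes rose in 344SQ, by 0.43 (limma, adjusted p = 0.0454), and 0 fell. With 1 array left out, 0 to 1 of them rose. Gast, gastrin, was at the floor of 4.09 in both 393 lines and at a mean of 4.11 in 344SQ.

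**Figure D4:**
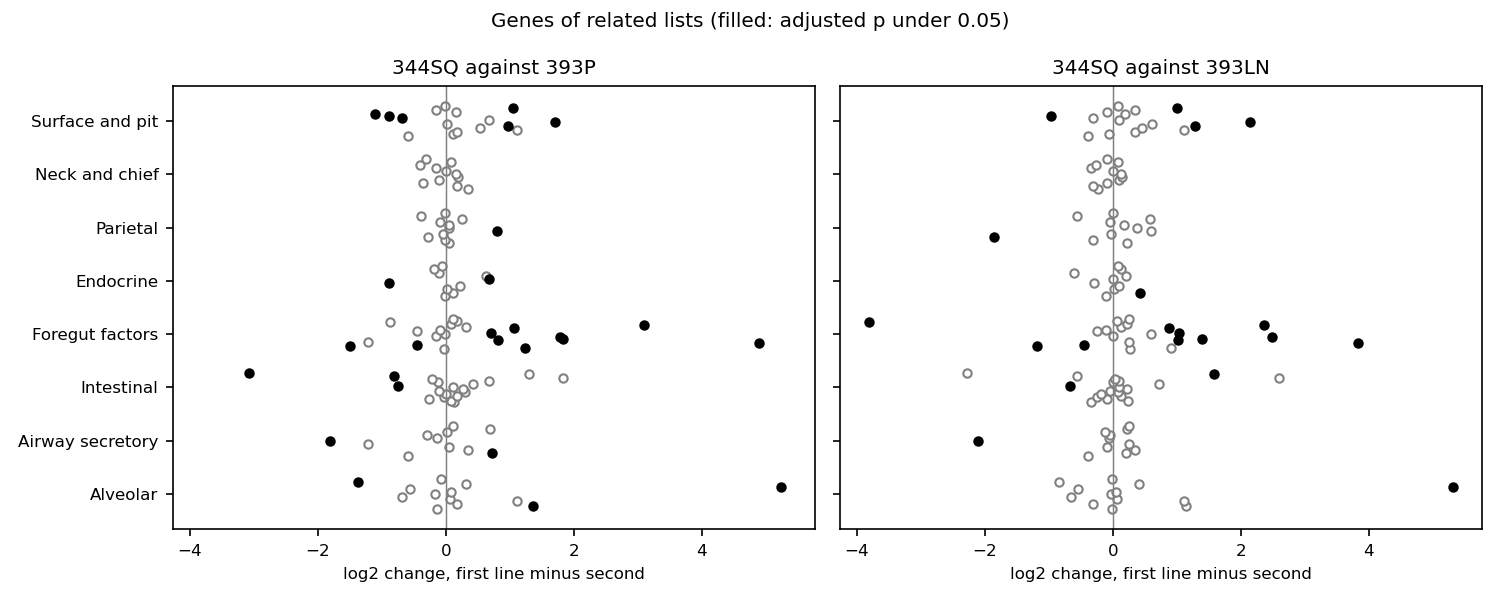
Difference in log2(intensity + 16) of each measured gene in lists of stomach, intestine, airway and alveolar genes, for 344SQ minus 393P and 344SQ minus 393LN; filled points passed an adjusted p of 0.05 in limma and open points did not. The foregut factor farthest to the right is Foxa2, at 4.89 and 3.83, and no gene of the neck and chief cell list is filled.

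Genes of neighbouring lineages were described for comparison. Beside them, 4.86% of all genes were called higher and 5.62% lower in 344SQ against 393P, and 3.99% and 6.92% against 393LN. Of 19 intestinal genes, 0 rose in 344SQ against 393P and 3 fell: Vil1, an actin-bundling protein of the brush border, by 3.07 (limma, adjusted p = 0.0177), Muc2 by 0.81 and Gpa33 by 0.75. These calls were lost without any of 2, 3 and 5 arrays for Vil1, Muc2 and Gpa33, in that order. Without 393P replicate 3, 1 of the 19 rose, and 1 fell without 344SQ replicate 1, or 393P replicate 3 or 4. Against 393LN, Reg3g, an antimicrobial lectin, rose by 1.58 (limma, adjusted p = 0.0271) and Gpa33 fell by 0.67 (adjusted p = 0.038), calls lost without any of 6 arrays for Reg3g and any of 7 for Gpa33; Reg3g differed from 393P by 1.30 (adjusted p = 0.0627). Cdx2, which defines the intestine, averaged 5.15 in 344SQ, 5.08 in 393LN and 4.85 in 393P. Of 13 alveolar genes 2 rose against 393P, Sftpb and Ager, and 1 fell, with Sftpb, a surfactant protein, rising by 5.23 (adjusted p = 2.9e-06) and Sftpd falling, by a log2 change of -1.37. Ager, the receptor of alveolar type I cells, rose by 1.36 (adjusted p = 0.0447), which was lost without any of 11 arrays, so that 1 to 3 of the list rose when an array was left out. A second probe set of Ager gave 0.18 against 393P (limma, adjusted p over all probe sets = 0.788). Against 393LN, Sftpb alone rose and 0 fell, with 3 rising without 344SQ replicate 4 and 1 falling without 393LN replicate 1. Sftpc, the marker of alveolar type II cells, averaged 7.13 in 344SQ, 6.73 in 393LN and 6.82 in 393P and did not pass. Of 11 airway secretory genes, Bpifa1 rose in 344SQ against 393P by 0.72 (limma, adjusted p = 0.0478) and Ltf fell by 1.81 (adjusted p = 0.0353). With 1 array left out, 0 to 1 of them rose and 0 to 3 fell. Against 393LN, Ltf alone fell, by 2.11 (adjusted p = 0.0176), and 0 rose.

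Among relatives of the members in their gene families, calls also went in both directions; 10.5% of all genes were called against 393P. Of 10 other annexins, Anxa8 rose in 344SQ against 393P by 1.73 (limma, adjusted p = 0.00037), Anxa6 and Anxa9 fell by 1.01 and 0.59, and 7 did not pass. Without 393P replicate 3, 1 of the annexins fell, and 3 other probe sets of Anxa6 gave -0.20 to -0.90 and did not pass. Of 9 relatives of Vsig1, 0 rose and 2 fell, Vsig10 by 1.31 (adjusted p = 8.4e-05) and Gpa33 by 0.75, and only Vsig10 fell without 344SQ replicate 2, 3 or 4, or 393P replicate 3 or 4. Of 6 other aspartic proteases, the kin of Cym and Pgc, 0 rose and Ctsd, the lysosomal cathepsin D, fell by 0.46 (adjusted p = 0.034, lost without any of 6 arrays). Tff3, the trefoil peptide of the intestine and the third of the trefoil genes on chromosome 17, averaged 7.94 in 344SQ, 7.59 in 393LN and 8.09 in 393P. Among 6 genes that share the BRICHOS domain of the gastrokines, 0 were called.

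**Figure D5:**
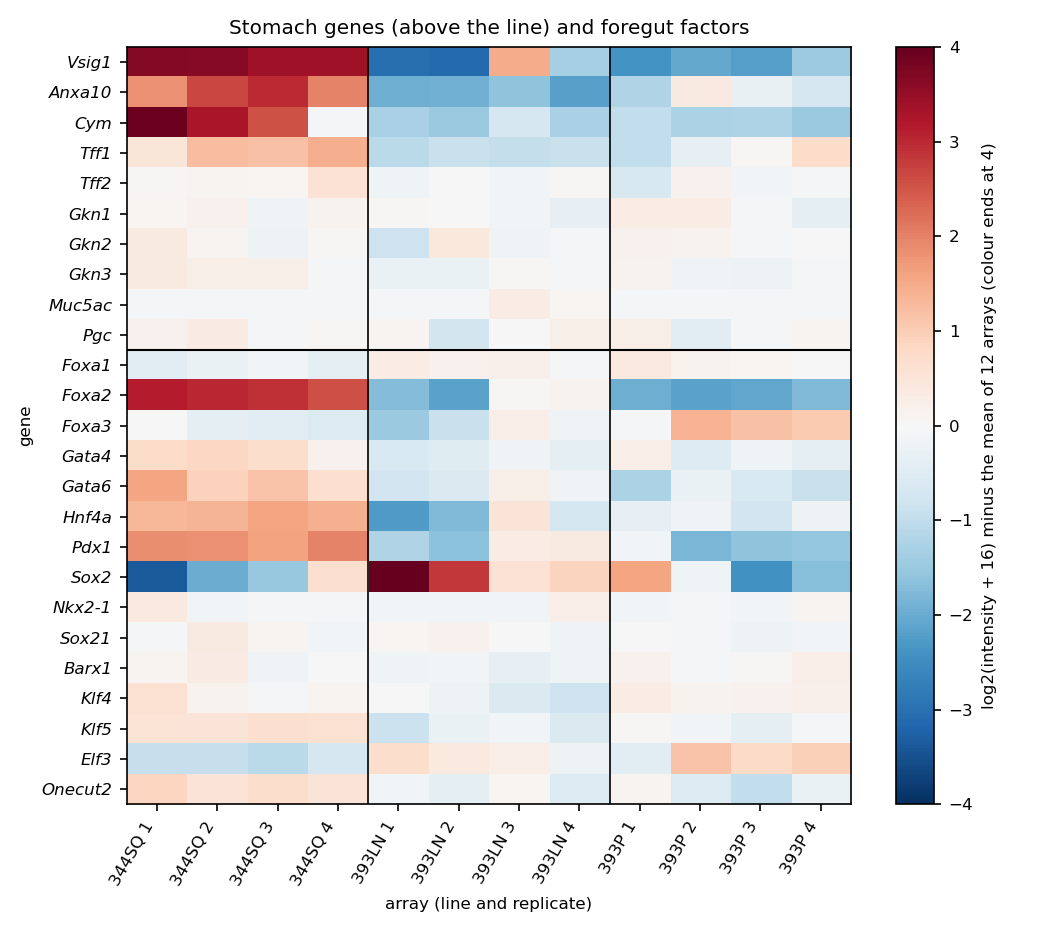
Values of the stomach genes, of foregut factors and of Nkx2-1 on each array, as the difference in log2(intensity + 16) from the gene's mean over the 12 arrays, with arrays of 344SQ, 393LN and 393P from left to right; red is above the mean and blue below. Vsig1, Foxa2 and Hnf4a are high across 344SQ and, within 393LN, higher on replicate 3 than on replicates 1 and 2.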

How the data were processed

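Tumour RNA of the lines 344SQ, 393LN and 393P (4 samples each, 12 in all) was hybridised to Affymetrix mouse arrays. The authors deposited 1 linear intensity per probe set and array; every value is 2 raised to a number of 2 decimals, the lowest is 1, and the software and its settings are not given in the sources used here. Of 45101 probe sets, 34945 had 1 gene symbol, 932 several, 9160 none and 64 were controls, by GEO's platform annotation. For each of 18193 symbols the probe set with the highest mean was kept, with 0 symbols changed after a check against RefSeq. A pseudocount of 16 was added, log2 was taken without further scaling, and limma 3.58.1 in R 4.3.3 (lmFit, eBayes) was fitted over all 12 arrays with 1 mean per line and 9 residual degrees of freedom, after a test on simulated data. P-values were adjusted over all genes by the Benjamini-Hochberg method at a threshold of 0.05. Replicates were numbered in accession order. The members, lists and tests were chosen with earlier results of these data known. All members are named, with up to 4 genes of each list by smallest p, up to 2 of the minority direction, set factors and the 5 nearest genes by r; Krt8, Epcam, Esrp1, Rab25, Klf5, Creb3l1, Cystm1, Lypd8, Lipf, Cblif, Gast, Cdx2, Kit, Ms4a2, Cpa3, Cma1, Fcer1a, Mcpt4, Tpsb2, Aif1, Tyrobp, Cd14 and Xist were named after their values were seen. Cldn18 and Chgb were likewise named after their values were seen. Not every gene that the rule picks from the lists is described in the text. Alternatives were other pseudocounts, scalings, filters, probe set choices and samples, and leaving out each array. Muc6, Dpcr1 and Slc26a9 are not analysed here.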

Additional observations from a re-analysis of the deposited data

Results flagged for a closer look

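In 20 of 253 groups of 4 arrays, over 85 named genes, the highest or lowest array lay far from the other 3. Far is relative to the range of the group, so the gap can be small, as for Psca (12.28 beside 12.16). For normally distributed values chance alone gives this in about 1 of 20 groups. That rate need not hold for groups with values at the floor, such as those of Nkx2-1. Among the stomach genes an array lay this far from its group in 1 of 28 groups: Tff2 was at 9.278 on 344SQ replicate 4, above the others at 8.73 to 8.80. The same array was far from its group for A4gnt (7.788), Ghrl (5.842), Sftpb (11.43) and Cdh2 (8.629), and in 344SQ also Bpifa1 on replicate 3 (5.066), Anxa6 on replicate 2 (10.46) and Nkx2-1 on replicate 1 (4.572). In 393LN this held for Neurog3 on replicate 1 (7.816), Baiap2l1 on replicate 2 (10.06), Apob on replicate 3 (8.764) and Nkx2-1 on replicate 4 (4.466). In 393P it held for A4gnt (6.542), Pdx1 (7.117), F11r (10.96) and Baiap2l1 (10.87) on replicate 1, Slpi on replicate 2 (11.78), Psca on replicate 3 (12.28), and Nrk (8.822) and Nkx2-1 (4.310) on replicate 4. Each value is on the log2(intensity + 16) scale.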

How the results depend on the processing

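Of the values recomputed under the alternatives, 1204 stayed the same, 38 moved, 11 lost their call and 11 reversed. Lost calls were counted only for stomach genes in 393LN against 393P, and all 11 were of Anxa10. In the 344SQ comparisons a stomach gene counted as the same when its change shifted by less than its SD within lines, whatever its call. Reversals were counted there only for genes called with all arrays, so Gkn3 at -0.52 and -0.66 with its other probe set counted as moved. Where a cause is not named it was not tested. Without the dimmest 50% of genes, 2 stomach genes were called in 344SQ against 393P and 2 against 393LN, since that filter on the mean removed Vsig1 and Cym. In 393LN against 393P, 0 were called (limma) with a pseudocount of 64, with the mean of all probe sets or with only the 8 arrays of the pair, where 174 genes and 1 listed gene were called over fewer samples. There Gkn1 and Gkn3 reversed to 0.43 and 0.14 with the probe set of largest variance, and to 0.14 and 0.033 with the mean of all probe sets. With each array left out in turn, the genes called were 1259 to 1932 for 344SQ against 393P, 1167 to 2481 for 344SQ against 393LN and 156 to 438 for 393LN against 393P, against 1907, 1984 and 446 with all arrays; the lowest counts were without 393P replicate 3, 344SQ replicate 2 and 393P replicate 3. Listed genes called were 13 to 27, 14 to 23 and 1 to 2, and stomach genes called 3 to 4, 4 and 0 to 1. For 393LN against 393P the differences then spanned -0.46 to 1.08 for Vsig1, -0.12 to 0.15 for Cym, -0.066 to 0.21 for Tff2, -0.40 to 0.017 for Gkn2 and -0.20 to 0.14 for Pgc, all through 0. No scaling moved the median of all genes by over 0.1. No paired analysis was run, since the labels give no pairing of arrays between lines. The arrays number 4 per line, line and donor mouse cannot be told apart for 344SQ, and the floor of the deposited values sets what can be seen of Muc5ac.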

Other observations

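Within 393LN, the arrays differed in the order of several foregut genes. Vsig1 was at 5.28, 5.19, 9.79 and 6.97 on replicates 1 to 4, and Hnf4a was at 8.71, 9.20, 11.48 and 10.28, Pdx1 at 6.05, 5.59, 7.55 and 7.59 and Foxa2 at 7.01, 6.61, 8.81 and 8.91. All 4 genes were higher on replicates 3 and 4 than on replicates 1 and 2. Sox2 ran the other way, at 12.28, 10.42, 8.17 and 8.50. These are values of 4 arrays of one line, chosen after they were seen, with no test.

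Xist, the RNA that coats the inactive X chromosome in females, was at 11.94, 11.03, 6.82 and 10.69 in 344SQ, 6.78 to 7.04 in 393LN and 7.04, 6.83, 7.35 and 10.92 in 393P. It was high on 3 arrays of 344SQ and 1 of 393P. On that array of 393P, replicate 4, Tff1 (12.29) and Vsig1 (6.84) were the highest of their line. The arrays of 344SQ did not share this order. Tff1 was lowest there (12.04) on replicate 1, where Xist was highest (11.94). Vsig1 was at 11.69 on replicate 3, where Xist was low (6.82), and at 11.70 on replicate 4, where Xist was high (10.69). A link of Xist with these genes was not tested.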
